A study of Mus musculus with 6 samples.

Results

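The Id family of transcriptional repressors (Id1, Id2, Id3 and Id4) was described in cultured mouse spermatogonial stem cells. Its 4 members were chosen by name. All 4 were found among the 41053 gene names counted in each of 6 RNA-seq libraries, and all 4 passed the filter on low counts that left 15263 genes for testing. The libraries came from 6 cell lines established from cultured stem spermatogonia of adult mice. The 3 wild-type (WT) lines had been electroporated with a plasmid carrying a GFP reporter alone, and the 3 lines labelled Ephb2-KO with a plasmid that also carried a guide RNA against Ephb2, an Eph receptor tyrosine kinase. GFP-positive cells were sorted and subcloned, so each line is 1 subclone. All 6 lines were grown in supplemented StemPro-34 medium. In both groups replicates 1 and 2 were at passage 20 and replicate 3 was at passage 18. The sources used here name no mouse strain, no edited Ephb2 allele and no parent culture of the lines.

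Id proteins carry a helix-loop-helix dimerisation domain but lack the basic stretch with which other members of that class contact DNA. They pair with E proteins and so keep them from forming DNA-binding dimers with tissue-restricted partners. Transcription of Id1, Id2 and Id3 is a well-known early response to bone morphogenetic protein (BMP) signalling through SMAD1, SMAD5 and SMAD9. In the testis Id4 is known as a marker of the stem-cell-rich fraction of undifferentiated spermatogonia.

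The 4 genes lie on different chromosomes of the mouse GRCm38 assembly. Id1 (ENSMUSG00000042745.9) occupies chromosome 2, bases 152736251 to 152737410, on the plus strand, and was counted over 1160 bases of exon. Id2 (ENSMUSG00000020644.9) occupies chromosome 12, bases 25093801 to 25096092, on the minus strand, with 1270 bases of exon in 3 exons. Id3 (ENSMUSG00000007872.3) occupies chromosome 4, bases 136143497 to 136145755, on the plus strand, with 1791 bases of exon, and lies 501784 bases from Ephb2 on the same chromosome. Id4 (ENSMUSG00000021379.2) occupies chromosome 13, bases 48261427 to 48264036, on the plus strand, with 1660 bases of exon in 3 exons. None of the 4 overlaps another gene on its own strand. Id4 overlaps the antisense gene A330033J07Rik, which held 1 to 6 counts per library when reads were counted by strand.

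The part of the coding sequence for the helix-loop-helix region is shown for all 4 members because it is the stretch that defines the family. Each is 123 bases read in frame, 5′ to 3′ on the coding strand, from exon 1 of the GENCODE vM21 transcript, at chr2:152736524-152736646 for Id1, chr12:25095774-25095896 (minus strand) for Id2, chr4:136144008-136144130 for Id3 and chr13:48261699-48261821 for Id4. Capitals mark bases that are the same in all 4. The opening ATG is an internal codon, not the start of translation.
Id1: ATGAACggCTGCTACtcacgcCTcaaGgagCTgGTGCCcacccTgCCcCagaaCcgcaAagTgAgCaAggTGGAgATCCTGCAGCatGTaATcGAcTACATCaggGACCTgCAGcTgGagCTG
Id2: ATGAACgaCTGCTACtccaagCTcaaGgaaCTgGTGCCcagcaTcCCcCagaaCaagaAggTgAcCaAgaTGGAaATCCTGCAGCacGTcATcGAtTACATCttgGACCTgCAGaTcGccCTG
Id3: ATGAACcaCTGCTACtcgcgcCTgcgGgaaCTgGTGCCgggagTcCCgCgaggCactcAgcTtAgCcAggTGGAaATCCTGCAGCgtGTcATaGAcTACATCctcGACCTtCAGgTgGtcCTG
Id4: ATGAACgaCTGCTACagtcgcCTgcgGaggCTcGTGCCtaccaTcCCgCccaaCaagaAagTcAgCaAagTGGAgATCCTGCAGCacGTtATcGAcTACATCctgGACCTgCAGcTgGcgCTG
In this window 72 of 123 bases (58.5%) were shared by all 4 genes. The shared bases fell at 26, 28 and 18 of 41 places for codon positions 1, 2 and 3. Id1 and Id2 were the most similar pair, with 79.7% of bases the same, and Id1 and Id3 the least similar, with 69.9%. Over the whole transcripts, the longest run of identical bases between any pair of members was 11 to 19 bases.

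Promoter sequence for the 250 bases before the RefSeq gene start was present for Id2, Id3 and Id4 in the RefSeq table (GRCm38.p6), that is for 3 of 4 members. The RefSeq start is base 25096092 for Id2, the same as in the annotation used for counting. It is base 136143822 for Id3, 325 bases downstream of the start used for counting, so the Id3 window lies inside the gene span given above. For Id4 it is base 48261116, 311 bases upstream of the start used for counting. Distances below are from the RefSeq starts. Motif letters known from BMP-responsive enhancers are shown because Id genes are BMP targets. Each stretch is 30 bases, 5′ to 3′ on the strand of its gene, with the motif in capitals. The letters GGCGCC, the GC-rich element bound by SMAD1 and SMAD5, occurred once in Id2 and once in Id4.
Id2, chr12:25096306-25096335, minus strand, motif 231 bases before the RefSeq start: tcaggccccctgGGCGCCcagcgcacactg
Id4, chr13:48260956-48260985, plus strand, motif 148 bases before the RefSeq start: ctcgggttgcccGGCGCCccgccctcgcca
The letters GTCTG, or CAGAC on the other strand, called the SMAD box, occurred at 167 and 68 bases before the RefSeq start of Id3.
Id3, chr4:136143643-136143672, plus strand: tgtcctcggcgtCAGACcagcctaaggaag
Id3, chr4:136143742-136143771, plus strand: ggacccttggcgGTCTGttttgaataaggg
An E-box (CANNTG, the letters recognised by E protein dimers) was found in the Id2 window alone of the 3, at 196 bases before the RefSeq start.
Id2, chr12:25096271-25096300, minus strand: aatttgccacccCAGCTGggctctcgcccg
Searched on both strands in the same way, GGCGCC occurred in 9.59% of 32851 promoters, GTCTG in 42.2% and CANNTG in 66.2%. The letters CCAAT occurred 3 times in Id2, 2 times in Id4 and not in Id3, against 33.8% of all promoters with a match. TATAAA was in none of the 3 windows and in 12.4% of all promoters. These are matches of letters in a short window, not measured binding sites.

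The 6 libraries held 21772404 to 34047758 counts in genes. A count of 3 then corresponded to 0.0803 to 0.147 CPM, the counts scaled to library size, and every Id value below stands well above it. Ephb2 mRNA was at 21.3, 27.1 and 10.8 CPM in WT replicates 1, 2 and 3, and at 37.1, 16.5 and 13.4 CPM in the lines labelled Ephb2-KO. Its ranges overlapped, with a log2 difference of 0.18 (SE 0.50, adjusted p = 1.0, edgeR's quasi-likelihood test), so the counts do not separate the groups at the targeted gene. Counts over a whole gene do not show a small edit. The groups are therefore named by their labels. Germ cell markers, including Ddx4 and Dazl, were detected for 12 of 12 listed genes in the files, and fibroblast and stromal markers for 18 of 18, with none of either list at 0.

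Id1 was the most abundant member in CPM per kilobase of exon, the scale on which genes of different length can be compared. Id1 stood at 32.6, 20.5 and 92.8 CPM per kb in WT replicates 1, 2 and 3, and at 29.5, 28.1 and 92.9 in the corresponding lines labelled Ephb2-KO. Id3 stood at 26.6, 10.7 and 58.6 CPM per kb in WT and at 26.5, 14.2 and 60.7 in the labelled knockout lines. In both genes the passage 18 libraries were the highest of all and the replicate 2 libraries the lowest. Id4 stood at 12.1, 17.2 and 8.05 CPM per kb in WT and at 13.1, 14.4 and 8.28 in the labelled knockout lines, so that its order across replicate numbers was the reverse. Id2 was the lowest member in every library, at 1.64, 4.04 and 4.97 CPM per kb in WT and at 1.44, 3.90 and 4.37 in the labelled knockout lines.

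Averaged over all 6 libraries, the levels were 49.4 ± 33.9 CPM per kb for Id1, 32.9 ± 21.7 for Id3, 12.2 ± 3.55 for Id4 and 3.39 ± 1.48 for Id2 (SD, n = 6). The ranges of Id1 and Id3 overlapped across libraries, as did those of Id3 and Id4. Within each library Id1 was above Id3 in 6 of 6, by 1.11-fold to 1.97-fold, whereas Id3 was above Id4 in 4 of 6. The order of Id1 and Id3 rests on the exon lengths. In CPM not divided by length, Id3 was above Id1 in WT replicate 1 (47.7 against 37.8). The same held in labelled Ephb2-KO replicates 1 (47.4 against 34.2) and 3 (109 against 108), and Id3 was below Id1 in the other libraries. The Id3 model used for counting starts 325 bases upstream of the RefSeq start, and other lengths were not tried. The range of Id2 lay below those of the other 3 members. The order Id1, Id3, Id4, Id2 held in replicates 1 and 3 of both groups, whereas in replicate 2 of both groups Id4 was above Id3. Among all tested genes ranked per kb, Id1 lay between percentiles 76.9 and 95.3, Id3 between 63.4 and 92.5, Id4 between 56.0 and 73.3 and Id2 between 25.6 and 45.7.

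The make-up of the Id pool varied between replicate numbers in both groups. Id4 made up 16.5%, 32.8% and 4.90% of the summed Id level per kb in WT replicates 1, 2 and 3, and 18.6%, 23.8% and 4.99% in the labelled knockout lines. Id1 exceeded Id4 by 2.70-fold, 1.19-fold and 11.5-fold in WT, and by 2.25-fold, 1.95-fold and 11.2-fold in the labelled knockout lines. The ratio of Id3 to Id4 was 2.21, 0.624 and 7.28 in WT, and 2.02, 0.988 and 7.32 in the labelled knockout lines. Both ratios were thus highest at passage 18 and lowest in replicate 2. The summed level of the 4 genes was 72.9, 52.5 and 164 CPM per kb in WT and 70.6, 60.6 and 166 in the labelled knockout lines. Lengths were those of the annotation used for counting (GENCODE vM3). In the later vM21 annotation the Id2 and Id4 models carry 1168 and 2189 further exon bases, and reads on those bases were not counted for these genes.

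**Figure D1:**
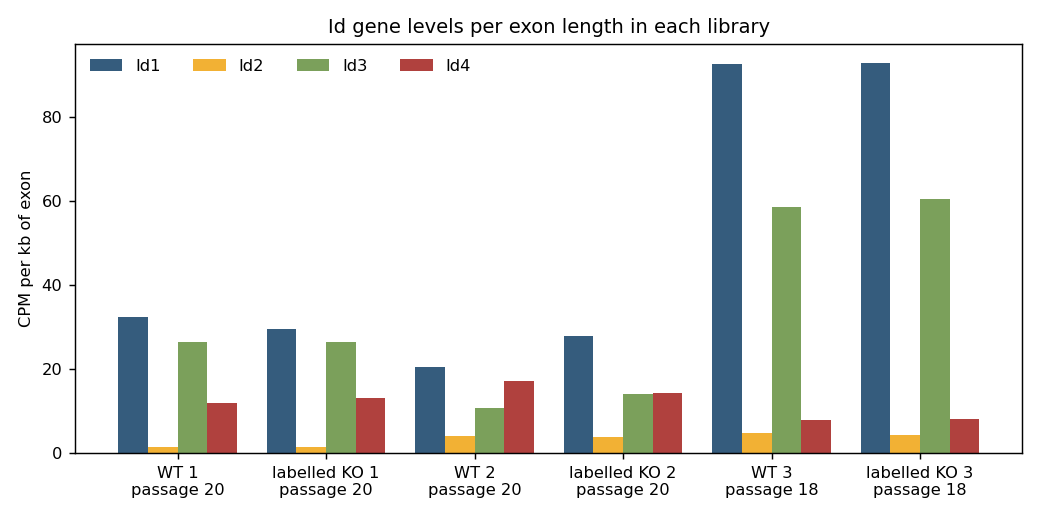
Bars give CPM per kilobase of exon (y axis, from 0) for Id1, Id2, Id3 and Id4 in each of the 6 libraries, 1 library per cluster of bars. Id1 and Id3 reach 92.8 and 58.6 CPM per kb in WT replicate 3 and nearly the same in the labelled knockout replicate 3, Id4 is lowest there, and Id2 is the lowest bar in every library.

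The comparison of the lines labelled Ephb2-KO with WT asks whether the Id genes differ by label. Loss of the receptor in the labelled lines is not shown by these counts. None of the 4 Id genes passed the test between the labels, and in each the spread between lines of 1 label was larger than the difference between the group means. Id1, a BMP target expressed in many cell types, was at 37.8, 23.8 and 108 CPM in WT replicates 1, 2 and 3 and at 34.2, 32.6 and 108 CPM in the labelled knockout lines. Id3, whose product overlaps in function with that of Id1, was at 47.7, 19.2 and 105 CPM in WT and at 47.4, 25.5 and 109 CPM in the labelled knockout lines. The ranges of the 2 labels lay over each other in both genes. Id4, the stem spermatogonia marker, was at 20.0, 28.5 and 13.4 CPM in WT and at 21.8, 23.9 and 13.8 CPM in the labelled knockout lines. Id2, whose product can also bind the retinoblastoma protein, was at 2.09, 5.13 and 6.31 CPM in WT and at 1.83, 4.95 and 5.55 CPM in the labelled knockout lines. Id2 was lower in the labelled knockout line in 3 of 3 same-numbered pairs, as were 12.3% of all tested genes, but its ranges overlapped too.

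Group means were 56.4 ± 44.9 CPM in WT and 58.2 ± 42.9 CPM in the labelled knockout lines for Id1, and 57.3 ± 43.7 and 60.5 ± 43.1 CPM for Id3 (SD, n = 3). For Id4 they were 20.6 ± 7.60 and 19.8 ± 5.36 CPM, and for Id2 4.51 ± 2.18 and 4.11 ± 2.0 CPM (SD, n = 3). By edgeR's quasi-likelihood test with Benjamini-Hochberg adjustment over all 15263 genes, 0 of the 4 were called at an adjusted p under 0.05. The background was 0.0% of tested genes (0 genes, with 32 or 0.21% at an unadjusted p under 0.05). DESeq2 called 4 genes (0.0262%), none of them an Id gene. Log2 differences, labelled knockout minus WT, were 0.04 (SE 0.68) for Id1, 0.08 (SE 0.70) for Id3, -0.06 (SE 0.37) for Id4 and -0.14 (SE 0.59) for Id2. The adjusted p was 1.0 for each. Exact two-sided permutation tests of the single genes gave p = 0.9 for Id1, 0.7 for Id2, 0.8 for Id3 and 1.0 for Id4, where 3 against 3 lines cannot give less than 0.1. CPM ranges did not overlap for 0 of the 4, against 2.39% of all tested genes.

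These tests leave wide intervals, and the same-numbered lines deviated together. With the replicate number as a block the 95% interval of the ratio of labelled knockout to WT was 0.864 to 1.33 for Id1, 0.906 to 1.35 for Id3, 0.767 to 1.25 for Id4 and 0.627 to 1.31 for Id2. Without the block it ran from 0.339 to 3.14 for Id1, from 0.334 to 3.34 for Id3, from 0.522 to 1.77 for Id4 and from 0.345 to 2.40 for Id2. With the block 0 of the 4 were called, against 0.0262% of tested genes (4 genes), and their adjusted p-values lay between 0.824 for Id3 and 0.974 for Id4. Within the pairs, the log2 differences of replicates 1, 2 and 3 were -0.14, 0.45 and 0.0014 for Id1 and -0.0079, 0.41 and 0.05 for Id3. They were 0.12, -0.25 and 0.04 for Id4 and -0.18, -0.05 and -0.18 for Id2. The pair at number 2 was the one that stood apart in Id1, Id3 and Id4, and the passage 18 pair differed by at most 0.18 in size in any member. The sign of the differences of Id1, Id3 and Id4 in the unblocked test changed when single lines were left out, as did that of Id2.

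**Figure D2:**
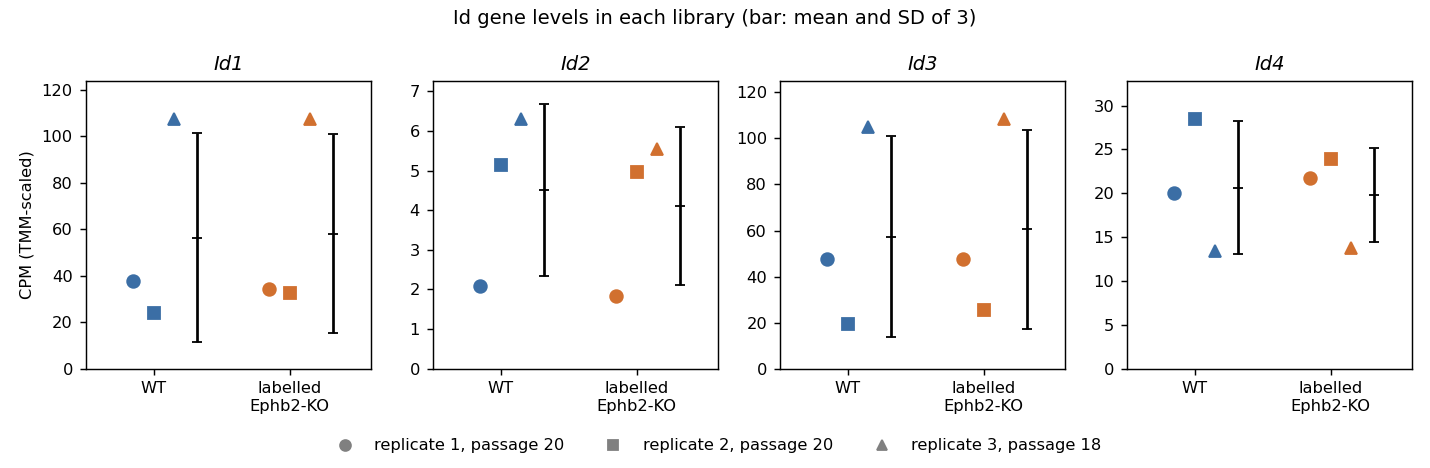
Each point is 1 library, with CPM on the y axis (from 0) and the label on the x axis; marker shapes give the replicate number and passage, and bars the mean and SD of 3 libraries. In each of the 4 genes the WT and labelled Ephb2-KO libraries of 1 number lie close together, while passage 18 (triangles) is highest for Id1, Id2 and Id3 and lowest for Id4.

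Replicate number 3 differs from the others by its passage, and this contrast held the largest differences of the family. Id1 and Id3 were higher and Id4 lower at passage 18 than at passage 20. Id1 averaged 108 CPM in the 2 passage 18 lines against 32.1 ± 5.96 CPM in the passage 20 lines (SD, n = 4), a log2 difference of 1.75 (SE 0.20, edgeR adjusted p = 0.00126) and a 3.35-fold ratio with a 95% interval of 2.44 to 4.62. Id3 averaged 107 CPM against 35.0 ± 14.8 CPM (SD, n = 4), a log2 difference of 1.61 (SE 0.36, edgeR adjusted p = 0.0184) and a 3.05-fold ratio with an interval of 1.69 to 5.51. Id4 averaged 13.6 CPM against 23.6 ± 3.67 CPM (SD, n = 4), a log2 difference of -0.80 (SE 0.24, edgeR adjusted p = 0.0456), or 1.74-fold lower. Id2 averaged 5.93 CPM against 3.50 ± 1.78 CPM (SD, n = 4) and did not pass the test, with a log2 difference of 0.77 (SE 0.51, edgeR adjusted p = 0.303) and an interval of the ratio of 0.747 to 3.87.

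So 3 of the 4 members were called, 2 higher and 1 lower. In this contrast 25.8% of all tested genes were called (3935 genes), 15.4% higher and 10.4% lower, so calls were common. The CPM ranges of the passages did not overlap for any of the 4 members, nor for 53.5% of tested genes. The passage has 2 lines on 1 side, both of replicate number 3, so passage and whatever else lines of that number share cannot be told apart. The fit also counted every line as separate, although same-numbered lines deviated together. Its SEs, p-values and intervals therefore do not measure the spread between replicate numbers. The Id1 call was lost without WT replicate 3 (adjusted p = 0.0605) and the Id3 call without either passage 18 line (adjusted p = 0.226 without WT replicate 3 and 0.192 without labelled Ephb2-KO replicate 3). The Id4 call was lost without any of 5 single lines, all but WT replicate 1, with adjusted p-values of 0.0576 to 0.397 and log2 differences of -0.86 to -0.67.

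Lines of the same passage also differed. Between numbers 1 and 2, both at passage 20, Id3 fell from a mean of 47.6 to 22.3 CPM and Id2 rose from 1.96 to 5.04 CPM. The log2 difference, number 2 minus number 1, was -1.10 for Id3 (SE 0.16, edgeR adjusted p = 0.00185), or 2.14-fold lower. For Id2 it was 1.36 (SE 0.30, edgeR adjusted p = 0.0130), a 2.57-fold ratio with a 95% interval of 1.62 to 4.08. Id1, with means of 36.0 and 28.2 CPM, gave -0.37 (SE 0.17, adjusted p = 0.173), and Id4, with means of 20.9 and 26.2 CPM, gave 0.32 (SE 0.19, adjusted p = 0.275). Thus 2 of the 4 were called, 1 in each direction, against 16.5% of all tested genes (2516 genes), 8.14% higher and 8.35% lower. In all 4 members both lines of number 1 lay on the same side of both lines of number 2, as they did for 60.1% of tested genes. The p-values and intervals of this contrast rest on the spread within same-numbered pairs, with the 2 lines of a number counted as separate. The Id2 call was lost without either line of number 2 (adjusted p = 0.0641 without the WT line and 0.0928 without the labelled knockout line). The Id3 call held in all 9 alternatives run.

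Id2 and Id3 therefore differed in opposite directions within passage 20, whereas at passage 18 both had their highest values. Across the 6 libraries the highest value exceeded the lowest by 4.53-fold for Id1, 3.45-fold for Id2, 5.66-fold for Id3 and 2.13-fold for Id4, so Id4 was the least variable member.

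**Figure D3:**
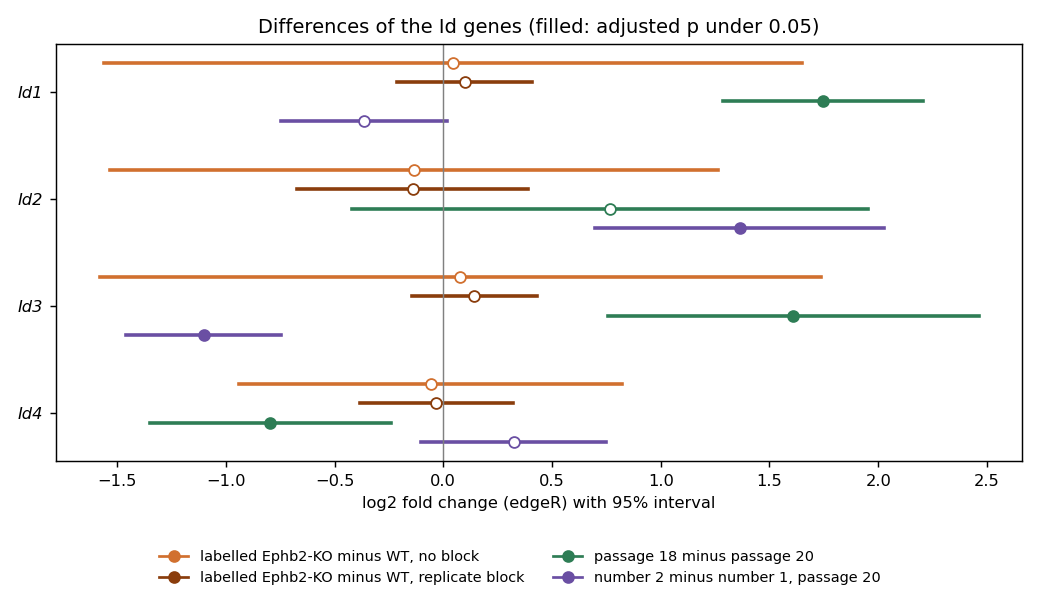
Points give edgeR log2 fold changes (x axis) of the 4 Id genes in 4 fits, with lines for the 95% interval and filled points for an adjusted p under 0.05. Both fits by label sit near 0 with open points, while filled points mark Id1, Id3 and Id4 for passage and Id2 and Id3 for replicate number.

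Markers of other cells differed along the same line of samples. The summed level of 18 fibroblast and stromal markers was 3523, 4991 and 19105 CPM in WT replicates 1, 2 and 3 and 5510, 6285 and 22681 CPM in the labelled knockout lines, 4.11-fold higher on average at passage 18. In the passage contrast 14 of these 18 genes were called higher and 0 lower, with a median log2 difference of 2.23 against -0.06 over all tested genes. The summed level of 12 germ cell markers was 3276, 3878 and 2258 CPM in WT and 3880, 3641 and 2093 CPM in the labelled knockout lines, 1.69-fold higher on average at passage 20, with 0 of 12 called higher and 8 lower. By label 0 genes of either list were called. The fibroblast sum was nevertheless higher in the labelled knockout line in 3 of 3 same-numbered pairs. In the fit with the replicate block 15 of its 18 genes were above 0, with 10 at an unadjusted p under 0.05. The median log2 difference of the 18 genes was 0.35 there, against 0.02 over all tested genes. Shares of all tested genes are not given here for these counts or for being higher in 3 of 3 pairs. The share at an unadjusted p under 0.05 given with the group means is from the fit without the block. That share is therefore no background for the 10 genes. Between numbers 1 and 2 of passage 20, where Id3 was lower and Id2 higher in number 2, 7 of the 18 fibroblast markers were called higher in number 2 (Col5a1, Vim, Fbn1, S100a4, Twist1, Twist2 and Prrx1) and 3 lower (Pdgfrb, Postn and Lum). Of the germ cell markers Gfra1 was called higher and Ddx4 lower there. Of the other lists Sox9, Clu, Acta2, Tek and Cd68 were called higher there and Gata4 lower. In the passage contrast Acta2, Emcn and Lyz2 of these other lists were called higher at passage 18 and Wt1 lower. Summed levels of the other somatic lists were low. Sertoli cell markers summed to 58.3 to 97.0 CPM per library with Fshr at 0, Leydig cell markers to 1.11 to 2.12 CPM with Hsd3b1 and Lhcgr at 0, peritubular markers to 26.0 to 68.6 CPM, endothelial markers to 7.18 to 15.8 CPM and macrophage markers to 20.9 to 30.2 CPM. In bulk RNA, fewer cells of a type and less RNA per cell cannot be told apart.

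Set beside those sums, the members separated. Per 1000 CPM of germ cell markers, Id4 was at 5.92 to 6.57 CPM in the passage 18 libraries and at 5.62 to 7.36 CPM in the passage 20 libraries, so the lower Id4 of passage 18 was matched by lower germ cell markers and the ranges overlapped. On the same scale Id1 was at 47.7 to 51.5 CPM against 6.13 to 11.5 CPM and Id3 at 46.5 to 51.9 CPM against 4.95 to 14.6 CPM, with no overlap. Per 1000 CPM of fibroblast and stromal markers, Id1 was at 4.75 to 5.63 CPM at passage 18 and at 4.77 to 10.7 CPM at passage 20. Id3 was at 4.79 to 5.49 CPM against 3.85 to 13.5 CPM, again overlapping. Id4 on that scale was at 0.606 to 0.700 CPM against 3.80 to 5.72 CPM. Id2 overlapped on neither scale, at 2.65 to 2.80 CPM against 0.472 to 1.36 CPM per 1000 CPM of germ cell markers and at 0.245 to 0.330 CPM against 0.332 to 1.03 CPM per 1000 CPM of fibroblast markers. These ratios are descriptions, and the part of the marker differences in the Id differences was not tested. The sums behind them are weighted to their most abundant genes. In WT replicate 3 Dazl was at 826 CPM within the germ cell sum of 2258 CPM. Col3a1, Col1a2 and Col1a1 were at 5662, 4608 and 1989 CPM there, within the fibroblast sum of 19105 CPM.

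**Figure D4:**
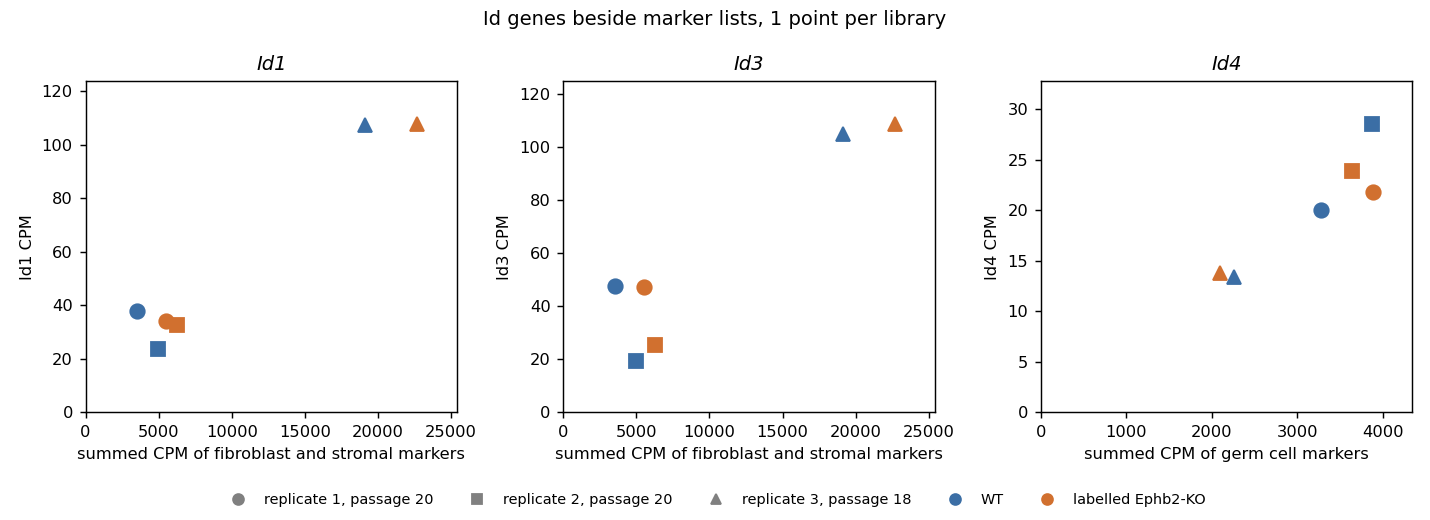
Each point is 1 library; the y axes give CPM of Id1, Id3 and Id4 and the x axes the summed CPM of fibroblast and stromal markers (Id1, Id3) or of germ cell markers (Id4), all from 0. The 2 passage 18 libraries (triangles) lie at 19105 and 22681 CPM of fibroblast markers with the highest Id1 and Id3, and at the lowest germ cell sums with the lowest Id4.

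The genes around the Id proteins were described from 12 lists of partners, upstream signals and targets, 143 genes in all, of which 109 were tested. By label, 0 of the 109 were called. Bmp8a, a germ cell BMP ligand, gave a log2 difference of 0.96 (SE 0.52, edgeR adjusted p = 1.0) and the BMP co-receptor gene Rgmb 0.37 (adjusted p = 1.0). Between passages 36 of 109 were called, 24 of them higher, and between numbers 1 and 2 at passage 20, 30 of 109, 18 of them higher. These counts stand against the backgrounds of 25.8% and 16.5% above. Of the 29 called genes that the naming rule took from these lists for passage, 23 lost their call without WT replicate 3 and 24 without labelled Ephb2-KO replicate 3. The 5 that kept it in all alternatives were Bmp1, Bmper, Cdkn1a, Fstl1 and Tgfbr2. Of the 24 taken for number, 16 kept their call in all alternatives, while 7 lost it without WT replicate 2 and 6 without labelled Ephb2-KO replicate 2. The shifts of the marker lists given above ran along the passage contrast in these lists too.

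E proteins, the partners that Id proteins hold back, were expressed in all lines. In the passage contrast 1 of 3 was called. Tcf4 was at 12.6, 18.3 and 37.3 CPM in WT and at 17.0, 17.7 and 47.5 CPM in the labelled knockout lines, a log2 difference of 1.36 (SE 0.21, edgeR adjusted p = 0.00473) for passage 18. Tcf3, which encodes E12 and E47, was at 175, 189 and 118 CPM in WT and at 251, 175 and 146 CPM in the labelled knockout lines. Tcf3 did not pass the test by label (log2 0.25, SE 0.28, adjusted p = 1.0). Of the retinoblastoma family, whose protein can be bound by Id2, Rbl2 rose at passage 18 by 2.72 on the log2 scale (SE 0.31, edgeR adjusted p = 0.00138) from 4.51 to 8.78 CPM over the passage 20 lines to 41.1 and 47.1 CPM. Rbl2 fell from number 1 to number 2 by 0.81 (adjusted p = 0.0234), the pattern across libraries also seen in Id3.

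Tissue-restricted basic helix-loop-helix genes, which need E proteins to bind DNA, were mostly low, with 15 of the 24 in the files below 1 CPM in every library. Of the 24, 12 were tested. Twist2, Tcf23 and Neurog3 were called higher at passage 18 and Tcfl5 lower. The Tcf23 call held in 1 of 11 alternatives and the Neurog3 call in 6 of 12. Tcfl5, a germ cell member, was at 146, 143 and 89.6 CPM in WT and at 170, 142 and 86.4 CPM in the labelled knockout lines, a log2 difference of -0.77 (edgeR adjusted p = 0.0106). Neurog3, a gene of undifferentiated spermatogonia, varied between lines of 1 passage, at 10.7, 1.33 and 20.0 CPM in WT and at 0.395, 1.31 and 13.3 CPM in the labelled knockout lines (adjusted p = 0.0485). In number 2 against number 1, Twist1 and Twist2 were called higher and Sohlh2, Tal2, Ascl2 and Atoh8 lower. Twist1 and Twist2 also stand in the fibroblast marker list. Ascl2 was at 2.65 and 4.26 CPM in the number 1 lines and at 0.353 and 0.360 CPM in the number 2 lines, a log2 difference of -3.23 (edgeR adjusted p = 0.00135).

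The list of Hes and Hey basic helix-loop-helix repressors also held Bhlhe40 and Bhlhe41. At passage 18, 2 of its 9 tested members were called, both higher, against 25.8% of all tested genes called. Of the 9, however, 2 were above 0 and 7 below. Their median log2 difference was -0.35, against -0.06 over all tested genes. Hes6 was at 13.5, 7.05 and 25.2 CPM in WT and at 11.5, 7.70 and 29.1 CPM in the labelled knockout lines, with a log2 difference of 1.44 (edgeR adjusted p = 0.0164). Like Id3, Hes6 was highest at passage 18 and lower in number 2 than in number 1 (log2 -0.76, adjusted p = 0.0346). Bhlhe40 gave 0.64 at passage 18 (adjusted p = 0.0419). By number, 4 of 9 were called, all lower in number 2, namely Hes5, Hes6, Hey1 and Bhlhe41. The median of the 9 was -0.76 on the log2 scale there, against -0.01 over all tested genes.

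Among the ligands, Bmp7, which can activate BMP receptors, stood at 21.7, 38.1 and 17.4 CPM in WT and at 49.1, 28.8 and 18.0 CPM in the labelled knockout lines (log2 0.31 by label, SE 0.45, edgeR adjusted p = 1.0). Of 22 BMP and GDF genes in the files 10 were tested, and at passage 18 Bmp1, Bmp4, Gdf9 and Gdf11 were called higher and Bmp8b lower. Bmp1 encodes a procollagen protease rather than a ligand. It was at 28.7, 35.6 and 106 CPM in WT and at 36.5, 40.4 and 125 CPM in the labelled knockout lines, a log2 difference of 1.71 (SE 0.15, edgeR adjusted p = 0.000517). Bmp4, a ligand known to act on spermatogonia, is named after its values were seen. Bmp4 was at 0.616, 0.313 and 1.36 CPM in WT and at 0.479, 0.225 and 2.06 CPM in the labelled knockout lines, a log2 difference of 2.02 (SE 0.54, edgeR adjusted p = 0.0327). Its passage 20 values lie close to the floor, since 3 counts correspond there to 0.0803 to 0.135 CPM. How the Bmp4 passage call fared in the alternatives was not followed. Bmp8b, a ligand made by germ cells, was at 8.49, 20.2 and 3.67 CPM in WT and at 14.5, 18.1 and 4.47 CPM in the labelled knockout lines, a log2 difference of -1.92 (edgeR adjusted p = 0.0151). In both groups Bmp8b thus had the order across replicate numbers of Id4, highest in number 2 and lowest at passage 18.

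Of the TGF-beta, activin and nodal ligands, 3 of 8 tested were called higher at passage 18 and 0 lower. Lefty1, a secreted inhibitor of nodal, was below 1 CPM in all passage 20 lines and at 6.48 and 9.09 CPM in the passage 18 lines, a log2 difference of 4.20 (SE 0.44, edgeR adjusted p = 0.000971). Tgfb2 and Tgfb3 gave 1.67 and 1.53. In number 2 the activin subunit genes Inhba and Inhbb were called higher. Inhba was at 0.670 and 0.930 CPM in number 1 and at 8.97 and 9.41 CPM in number 2, a log2 difference of 3.54 (edgeR adjusted p = 0.000124).

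Receptors had 4 of 16 tested members called higher at passage 18 and 0 lower. Acvrl1 and its co-receptor gene Eng, which pass BMP9 and BMP10 signals in endothelium, gave log2 differences of 2.28 (edgeR adjusted p = 0.00221) and 1.28 (adjusted p = 0.0461). Tgfbr2, the TGF-beta type II receptor, was at 46.0, 50.9 and 207 CPM in WT and at 64.6, 57.1 and 261 CPM in the labelled knockout lines, a log2 difference of 2.10 (SE 0.13, edgeR adjusted p = 0.000208). Bmpr1a, a BMP type I receptor, is named after its values were seen, and its level was 122 to 145 CPM in all 6 libraries. Between numbers 1 and 2, Acvr1, Bmpr2 and Eng were called higher in number 2 and none lower, whereas Id3 was lower there and Id1 did not pass the test.

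SMAD transducers, which carry the signal to the Id promoters, had 0 of 6 genes called at passage 18. Smad3, a transducer of TGF-beta and activin, gave a log2 difference of -0.59 (adjusted p = 0.0652) and was called lower in 4 of 12 alternatives, with -0.68 to -0.58. Smad1 was at 25.1, 30.9 and 28.1 CPM in WT and at 34.4, 32.7 and 31.4 CPM in the labelled knockout lines (log2 0.23 by label, SE 0.21, adjusted p = 1.0). Smad5 was at 77.2 and 81.4 CPM in the number 1 lines, 46.1 and 45.0 CPM in the number 2 lines and 77.6 and 78.5 CPM at passage 18. Its difference between numbers 1 and 2 was -0.80 (SE 0.14, edgeR adjusted p = 0.00485), the same sign as that of Id3 (-1.10).

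Antagonists and inhibitors of the pathway had 17 of 19 genes tested. At passage 18 the 4 genes Fstl1, Fstl3, Bmper and Nbl1 were called higher and the 2 nuclear SMAD inhibitors Ski and Skil lower. Bmper, a secreted BMP modulator, was at 19.8, 21.8 and 119 CPM in WT and at 24.5, 29.5 and 140 CPM in the labelled knockout lines, a log2 difference of 2.45 (SE 0.15, edgeR adjusted p = 0.000204). Ski was at 248, 383 and 163 CPM in WT and at 417, 344 and 197 CPM in the labelled knockout lines, a log2 difference of -0.95 (edgeR adjusted p = 0.0176). By number, Grem1, which encodes a secreted BMP antagonist, was called higher in number 2. Grem1 was at 45.5 and 51.8 CPM in number 1, at 153 and 195 CPM in number 2 and at 341 and 403 CPM at passage 18, and its log2 difference of number 2 from number 1 was 1.83 (SE 0.14, edgeR adjusted p = 4.06e-05).

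Among the other targets of BMP-SMAD signalling none passed the test at passage 18. Of 13 tested, 0 were called, 2 were above 0 and 11 below, with a median log2 difference of -0.13 against -0.06 over all tested genes. Smad7, an inhibitory SMAD induced by the pathway, was at 30.9, 18.6 and 20.2 CPM in WT and at 30.4, 24.3 and 28.6 CPM in the labelled knockout lines (log2 0.26 by label, SE 0.28, adjusted p = 1.0). Between numbers 1 and 2, Msx1, Runx2, Tgif1 and Stat3 were called higher and Hey1 and Atoh8 lower. Atoh8 was at 16.0 and 18.1 CPM in number 1 and at 5.25 and 4.91 CPM in number 2, a log2 difference of -1.74 (SE 0.24, edgeR adjusted p = 0.00144). Hey1 gave -0.83 (adjusted p = 0.00419). Runx2, a transcription factor of bone and stroma, gave 1.71 (adjusted p = 0.00107), opposite in sign to Id3.

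CDK inhibitor genes, which E proteins can activate and Id proteins hold down, had Cdkn1a called higher and Cdkn2a lower at passage 18 among 4 tested. Cdkn1a (p21) was at 126, 147 and 756 CPM in WT and at 138, 189 and 887 CPM in the labelled knockout lines, a log2 difference of 2.46 (SE 0.17, edgeR adjusted p = 0.000256). Cdkn1a and Id1 were thus both highest at passage 18. Cdkn2a gave -0.53 (adjusted p = 0.0363).

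Of 14 tested stem spermatogonia genes, 7 were called lower at passage 18, as Id4 was, and Cd82 higher, with a median log2 difference of -0.81, close to that of Id4 (-0.80). Ret, the GDNF receptor kinase, was at 136, 210 and 72.9 CPM in WT and at 164, 181 and 77.8 CPM in the labelled knockout lines, a log2 difference of -1.20 (SE 0.21, edgeR adjusted p = 0.00697). Zbtb16 and Nanos2, regulators that keep spermatogonia undifferentiated, gave -0.84 (adjusted p = 0.0212) and -0.72 (adjusted p = 0.0310). Part of this list is shared with the germ cell markers. By number, Etv5, a GDNF-responsive transcription factor, was at 24.7 and 23.3 CPM against 252 and 218 CPM, a log2 difference of 3.29 (SE 0.15, edgeR adjusted p = 1.09e-06). Id4 was higher in number 2 as well, but by 0.32 and without passing the test.

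**Figure D5:**
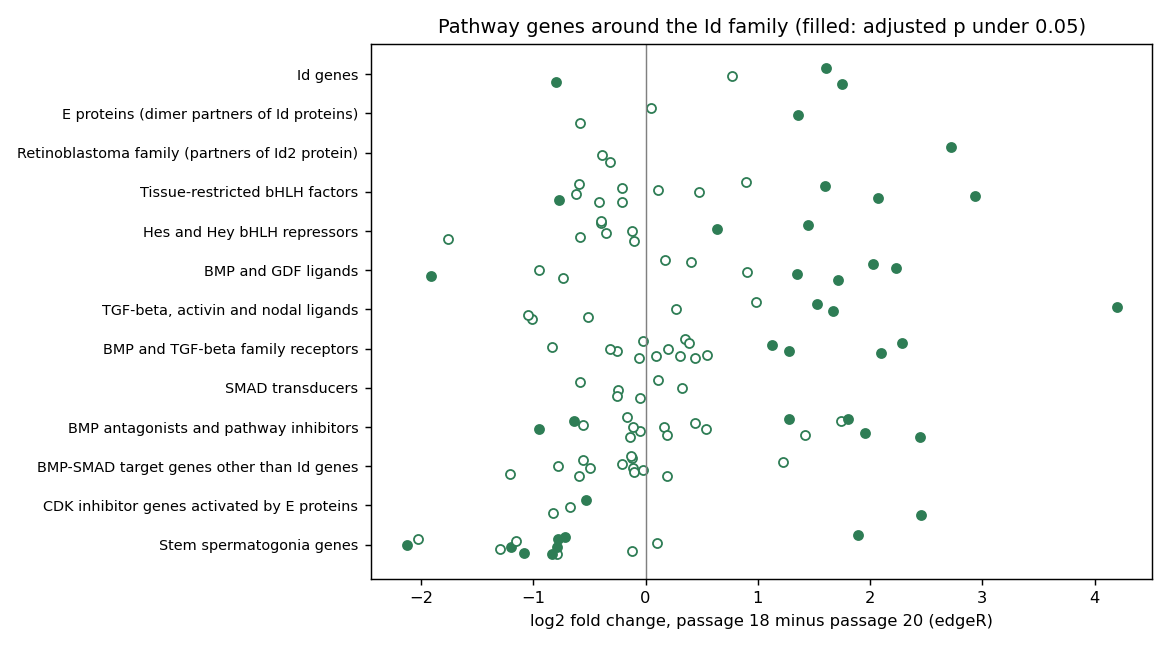
Each point is a tested gene of a list (rows), with its edgeR log2 fold change of passage 18 minus passage 20 on the x axis and filled points for an adjusted p under 0.05. Id1 and Id3 lie to the right with most called ligand and receptor genes, Id4 lies to the left with most called stem spermatogonia genes, and no point of the SMAD transducers or of the BMP-SMAD targets other than Id genes is filled.

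The genes whose pattern over the 6 libraries was most like that of each member were found by Pearson's correlation of log2 CPM among genes with a mean of at least 5 CPM. For Id1 they were Stx4a, Ctla2a and Scrn1 (r = 0.999 each), for Id3 1810043G02Rik (0.999), 2610301B20Rik and Klf15 (0.998 each). For Id4 they were Pdcd11, Arhgap32 and Atr (0.999 each) and for Id2 Itgb1 (0.995), Uso1 and Nsdhl (0.992 each). How many genes reached values as high as these was not counted. A correlation of at least 0.95 was reached by 925 of 11391 genes (8.12%) for Id1, 721 (6.33%) for Id4, 439 (3.85%) for Id3 and 110 of 11392 (0.966%) for Id2. Id1 and Id3 correlated with each other at 0.946, Id1 and Id4 at -0.986 and Id3 and Id4 at -0.980. Id2 correlated less closely with the other members, at 0.45 with Id1, 0.15 with Id3 and -0.31 with Id4. These 6 points share 3 replicate numbers and the passage split, and the values describe these libraries without a test.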

How the data were processed

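Bulk poly(A) RNA from 6 lines was made into libraries that keep strand (NEBNext Ultra Directional kit), per the labels' protocols. The deposited counts are whole reads per gene name from featureCounts 1.4.6-p4 with GENCODE vM3 exons and strand setting 2, per the file headers. STAR, FastQC and GRCm38.p3 are named in the submitters' processing notes, which give no versions for STAR and FastQC. The exon length was read from the deposited tables, where the authors' counting tool wrote it.

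Counts were tested with edgeR 4.0.16 in R 4.3.3 (filterByExpr, TMM scaling, robust quasi-likelihood fit, Benjamini-Hochberg over 15263 genes, threshold 0.05), 3 lines against 3, and again for passage with a label term and for replicate number with label and number terms. DESeq2 1.42.0 and the other settings are in the closing section. CPM values are TMM-scaled, and levels between genes are divided by exon length. The edgeR SEs, from which intervals were built, are the size of the log2 difference over the square root of the test's F statistic. Intervals are 95% and cover the spread between these lines only, since nothing states that lines came from separate animals or cultures. Same-numbered lines deviated together, with correlations of deviations from the group means of 0.596, 0.736 and 0.850 for numbers 1, 2 and 3, so the numbers were taken as pairs on the evidence of the data. The passage fit took no account of this pairing, and the number fit used the spread within pairs. The label fit without the block had been set as the main one, and both are given.

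On simulated data the fit without the block recovered 0% of 2-fold and 20% of 4-fold changes by label among 15031 genes. The blocked fit recovered 86% and 97% (15033 genes), the passage fit 80% and 99% (15038 genes) and the number fit 65% and 98% (15052 genes), with 200 genes changed in each. False calls were 0 of 20 without the block, 22 of 205 with it, 22 of 201 for passage and 9 of 172 for number. The passage and number runs used means set equal across pairs and so leave out other differences between replicate numbers. All runs drew the spread between lines from the blocked fit (coefficient of variation 0.166). The passage fit of the real data had 0.281, so the simulated recovery does not carry over to the real passage test.

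Named genes were the 4 members, Ephb2, up to 4 called genes per list and comparison by smallest p (up to 2 where none was called), and the 3 genes most like each member. The members and lists were chosen with earlier results of these data known. Coding windows came from GENCODE vM21 transcripts and promoter sites from a RefSeq table of GRCm38.p6. Protein sequences were not used here.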

Additional observations from a re-analysis of the deposited data

How the results depend on the processing

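By label, 0 genes were called by edgeR without a block and in every fit that left out 1 line, and 4 with DESeq2 and 4 with the replicate block. With the replicate block and a pair left out (chosen after seeing the data), 56 were called without replicate 1 of both groups, 3 without replicate 2 and 4 without replicate 3. No Id gene was called by label under any of 15 alternatives (14 for Id2), and the replicate block changed no Id call. Signs by label were not stable. Id1 was -0.0061 with total counts without TMM and -0.0691 with the block without replicate 2, and Id4 was 0.0828 with the latter. Leaving out 1 line gave -0.76 to 0.92 for Id1, -0.48 to 0.22 for Id2, -0.65 to 0.86 for Id3 and -0.29 to 0.25 for Id4. With the block without replicate 1, Ephb2 was -0.22 and Bmp7 -0.19. Leaving out 1 line turned the sign by label of these genes, with ranges of -0.40 to 0.48 for Ephb2, -0.14 to 0.71 for Bmp7, -1.07 to 1.58 for Cdkn1a, -0.34 to 0.12 for Cdkn2b, -0.11 to 0.70 for Inhbb, -0.17 to 0.97 for Pax7 and -0.39 to 0.83 for Tcf4. Between numbers Ephb2 ranged from -1.05 to 0.23. By passage, leaving out 1 line gave 284 (without WT replicate 3) to 4187 called genes, with 325 without labelled Ephb2-KO replicate 3. Of those 284 and 325, 282 and 321 were higher and 2 and 4 lower, against 2347 higher and 1588 lower of 3935 with all lines. It gave log2 differences of 1.61 to 1.89 for Id1, 1.38 to 1.95 for Id3, 0.53 to 1.14 for Id2 and -0.89 to -0.67 for Id4. A lone passage 18 line was assumed to vary like the others. By number, it gave 1401 (without WT replicate 2) to 3555 called genes, with 1511 without labelled Ephb2-KO replicate 2, and -0.63 to -0.10 for Id1, 1.30 to 1.44 for Id2, -1.29 to -0.90 for Id3 and 0.16 to 0.50 for Id4. Id1 passed the test between numbers without labelled Ephb2-KO replicate 1 (-0.55, adjusted p = 0.0470). The passage calls held in 11 of 12 alternatives for Id1, 10 of 12 for Id3 and 7 of 12 for Id4, and the Id2 call between numbers in 6 of 8. Total counts without TMM moved the median of all genes by -0.10 (passage) and -0.17 (number) and the share of calls that were higher from 59.6% to 48.0% and from 49.4% to 26.2%. No Id gene changed sign in those contrasts. Id2 was not tested with at least 5 CPM in 3 libraries. The cause of these changes was not tested. Fits with a line left out also rest on fewer lines.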
